A study of Rattus norvegicus with 12 samples.

Results

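The genes described here are the heat shock proteins, their J-domain partners and the cytosolic chaperonin subunits, read in punches of the rostral ventrolateral medulla (RVLM) of ageing rats. Members were chosen by name alone: every non-control array feature whose gene name began with Hsp and a family letter, with Dnaja, Dnajb or Dnajc, or with Cct2 to Cct8. This gave 96 features for 61 genes, of which 59 were tested among 25441 items, an item being 1 gene or, where a probe had no gene name, 1 probe. Hspa1b, at 0 of 12 arrays well above background, and Dnajc5g, at 1 of 12, could not be tested. Of the 59, 58 were well above background on every array and Hspb7 was on 9.

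The RVLM is a medullary region that holds the C1 adrenergic neurons, which drive sympathetic tone. Total RNA came from male rats of the inbred strain F344, and the labels name no treatment. There were 3 animals at each of 3 ages, and the labels call those of 3 months young, those of 12 months middle-aged and those of 24 months aged. All were killed by decapitation under isoflurane, and the tissue was taken from frozen brain. The 9 animals gave 12 one-colour arrays on 3 slides, since replicate 3 of each age was hybridised to 2 arrays, which were averaged. Slide was partly confounded with age. Slide 1 held young and middle-aged animals, slide 2 middle-aged and aged ones, and slide 3 only replicate 3 of each age. Young and aged animals thus shared a slide only through replicate 3, and age and slide cannot be fully told apart.

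Chaperones bind unfolded or partly folded proteins. HSP70 proteins (the Hspa genes) hold and release clients in an ATP cycle that J-domain proteins (Dnaja, Dnajb, Dnajc) start and nucleotide exchange factors such as Hsph1 reset. HSP90 finishes the folding of kinases and receptors, small heat shock proteins (Hspb) bind aggregating clients without ATP, and the ring complex CCT folds actin and tubulin. In the heat shock response the factor HSF1 induces a subset of these genes (Hspa1a, Hspa1b, Dnajb1, Hspb1, Hsph1) through heat shock elements, while misfolding in the endoplasmic reticulum (ER) induces Hspa5 and its partners through the unfolded protein response.

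The promoters of 5 members match these elements or a pair of their units. They are given because the inducible and the constitutive genes are read separately below. Each run is the 250 bases before the transcription start in RefSeq for build GRCr8, and capitals mark the matches. In the first 4 the capitals are GAANNTTC or TTCNNGAA, the pair of heat shock units in either arrangement, each reading the same on both strands. In Hspa5 they are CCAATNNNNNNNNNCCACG, the ER stress element.
Hspa8, chr8:50080264-50080513, plus strand: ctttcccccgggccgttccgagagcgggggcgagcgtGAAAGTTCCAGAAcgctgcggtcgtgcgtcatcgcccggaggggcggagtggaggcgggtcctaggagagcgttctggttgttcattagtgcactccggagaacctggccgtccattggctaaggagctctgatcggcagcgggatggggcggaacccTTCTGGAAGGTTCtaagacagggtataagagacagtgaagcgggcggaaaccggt
Hsph1, chr12:10427118-10427367, plus strand: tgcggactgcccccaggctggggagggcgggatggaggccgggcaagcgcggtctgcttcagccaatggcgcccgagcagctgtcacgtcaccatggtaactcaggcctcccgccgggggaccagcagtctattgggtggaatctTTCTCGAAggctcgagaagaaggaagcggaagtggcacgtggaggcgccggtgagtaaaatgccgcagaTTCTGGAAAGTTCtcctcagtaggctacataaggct
Hspb1, chr12:26432302-26432551, minus strand: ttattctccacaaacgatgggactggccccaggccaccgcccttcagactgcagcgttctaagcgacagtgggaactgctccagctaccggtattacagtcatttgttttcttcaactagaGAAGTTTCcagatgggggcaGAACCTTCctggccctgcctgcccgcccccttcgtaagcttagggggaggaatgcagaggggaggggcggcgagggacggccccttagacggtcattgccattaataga
Dnajb1, chr19:41431142-41431391, minus strand: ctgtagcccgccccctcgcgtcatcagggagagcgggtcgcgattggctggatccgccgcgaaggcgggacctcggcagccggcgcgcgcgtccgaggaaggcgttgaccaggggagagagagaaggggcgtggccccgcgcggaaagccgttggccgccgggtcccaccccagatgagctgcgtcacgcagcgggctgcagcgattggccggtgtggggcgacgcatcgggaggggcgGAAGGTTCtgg
Hspa5, chr3:38452766-38453015, plus strand: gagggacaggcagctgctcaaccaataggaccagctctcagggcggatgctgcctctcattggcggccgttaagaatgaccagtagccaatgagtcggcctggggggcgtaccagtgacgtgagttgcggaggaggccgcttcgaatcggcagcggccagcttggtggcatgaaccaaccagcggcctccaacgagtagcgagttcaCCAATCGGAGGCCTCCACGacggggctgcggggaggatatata
Promoters were matched for 50 of the 61 members. The pair of units stood in 16 of the 50 and in 13.2% of 27457 promoters of the same length. A run of 3 units (GAANNTTCNNGAA or TTCNNGAANNTTC, which contains the pair) stood in 4 members (Hspa8, Hspd1, Hspe1 and Hsph1) and in 0.597% of all promoters. The ER stress element, searched on both strands, stood in Hspa5 and Dnajc3 and in 0.0765% of all promoters. These are matches of letters, not measured binding sites.

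No chaperone transcript was called between ages, and most differences were small. No member passed the test in any comparison (limma's moderated test on log2 levels relative to each array's 75th percentile, Benjamini-Hochberg adjusted p under 0.05 over all 25441 items). Between 24 and 3 months, 0 of 59 members passed against 2.04% of all items, and the smallest adjusted p was 0.0575, for Hspa1l. Between 12 and 3 months 0 passed against 0.2% (smallest adjusted p 0.728), between 24 and 12 months 0 passed against 0.0118% (0.288), and in the F test over the 3 ages 0 passed against 1.15% (0.151). The median member difference was -0.02 for 24 minus 3 months against 0.03 over all items, 0.04 against 0.01 for 12 minus 3 months, and -0.06 against 0.02 for 24 minus 12 months, all as log2 differences. In these bulk punches fewer cells of a type and less RNA per cell cannot be told apart.

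The intervals show how large a difference could have gone unseen. For 24 minus 3 months the 95% confidence interval lay within 0.5 of 0 for 46 members and within 1 of 0 for 55, with a median half-width of 0.21, and 50 members differed by less than 0.25. A member of median spread would have needed an observed difference of 0.46 to pass, and the least precise one 2.01. These are limits on the estimate, so a true difference of that size could still be missed. The within-age SD of the members had a median of 0.11 against 0.14 over all items, and the arrays of the same animal differed by medians of 0.046 to 0.05. The labels call these samples biological replicates.

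**Figure D1:**
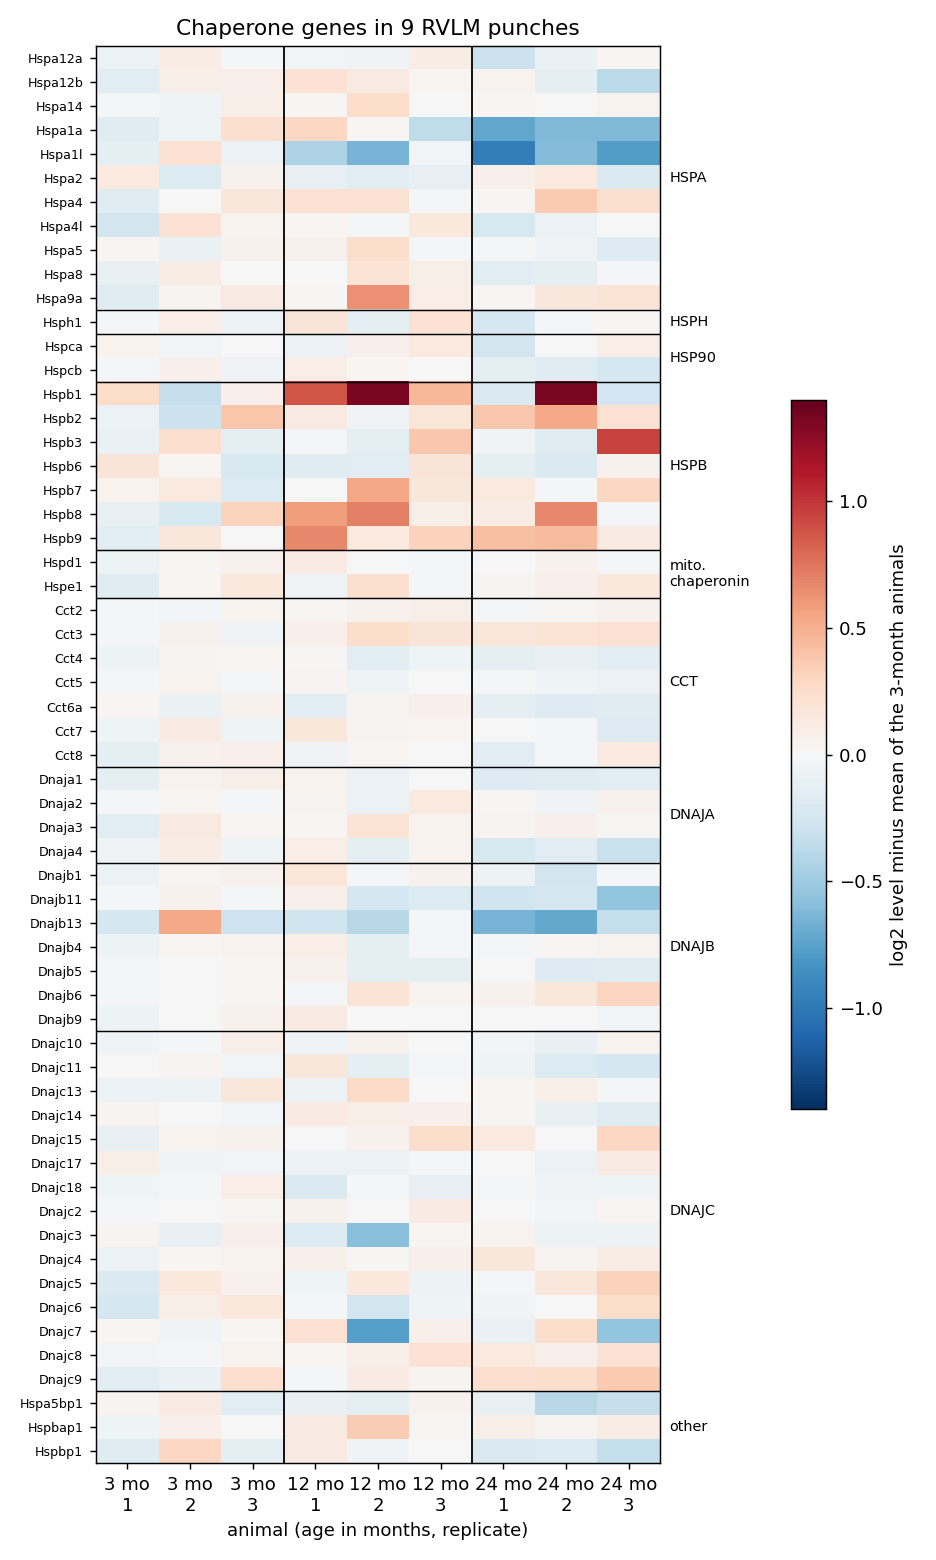
Log2 level of each of the 59 tested chaperone genes in each of 9 animals, as the difference from the mean of the 3-month animals, with genes in rows by family and animals in columns by age. Most cells are near white; Hspa1a and Hspa1l are lower in all 3 animals of 24 months, and Hspb1 is highest in middle-aged replicate 2 and aged replicate 2.

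At an unadjusted p under 0.05 the members leaned lower at 24 months. Against 3 months, 7 of 59 members were lower against 4.93% of all items, and 2 were higher against 10.3%. Against 12 months, 6 were lower against 3.12% of items and 0 were higher against 7.59%. Between 12 and 3 months 2 were higher against 3.72% and 0 were lower against 2.63%. The counts of members whose groups did not overlap ran the same way. For 24 against 3 months 11 were lower (8.68% of items) and 3 higher (14% of items), and for 24 against 12 months 10 were lower (6.6%) and 2 higher (10.4%). For 12 against 3 months 3 were higher (6.75%) and 0 lower (4.61%). The comparisons of 24 months share the aged animals, so these counts are not separate evidence of one another.

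The stress-inducible HSP70 gene Hspa1a was lower in the aged animals than in all others, without passing the adjusted threshold. Its log2 level, relative to the array's 75th percentile, was -1.70, -1.59 and -1.31 in the young animals, -1.24, -1.52 and -1.89 in the middle-aged and -2.26, -2.15 and -2.15 in the aged. All 3 aged animals lay below all 6 younger ones, while the young and middle-aged animals overlapped. The difference of 24 minus 3 months was -0.65 (SE 0.16, 95% confidence interval -1.03 to -0.28), or 0.636-fold, with an unadjusted p of 0.00334 and an adjusted p of 0.0956. The difference of 24 minus 12 months was -0.64 (SE 0.16, adjusted p 0.288), and that of 12 minus 3 months was -0.02. The probe, read on 10 spots, lies at chr20:3958091-3958150 of build rn3 on the plus strand. A second Hspa1a probe, 5' of it at chr20:3957065-3957124, gave -0.31 for 24 minus 3 months and -0.39 for 24 minus 12 months. Hspa1a and Hspa1b are near-identical in sequence, and which of them each probe reads was not tested. Within slide 3, which held all 3 ages, the log2 difference of the aged minus the young animal was -0.84. For 24 minus 12 months the difference was -0.51 within slide 2 and -0.24 within slide 3. For 12 minus 3 months it was 0.30 within slide 1 and -0.60 within slide 3. Slide 1 compares middle-aged replicate 1 with all young animals, and slide 3 compares replicate 3 of both ages. The sign of that difference thus varied with the animals compared, as the levels above show.

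Hspa1l, the testis-enriched HSP70 gene beside Hspa1a, had the lowest difference of all members. Its level was -4.78, -4.45 and -4.73 at 3 months, -5.08, -5.30 and -4.69 at 12 months and -5.63, -5.26 and -5.43 at 24 months. The aged and young animals did not overlap, and 1 middle-aged animal lay among the young. The difference of 24 minus 3 months was -0.79 (SE 0.17, interval -1.17 to -0.40, adjusted p 0.0575). This is a dim probe, and normexp background correction gave -0.27 in place of -0.79. Hspa1l passed with quantile normalization (adjusted p 0.0316), with the deposited matrix values (0.0281), and without middle-aged replicate 2 (0.047) or 3 (0.0335). Hspa1a passed without middle-aged replicate 3 (0.0497) and when both arrays of replicate 3 entered separately with animal as a random block (0.0383), but with slide also in the fit its adjusted p was 0.184 and that of Hspa1l 0.343. The difference of 24 minus 12 months was -0.42 for Hspa1l (adjusted p 0.444).

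Dnajb1 and Hsph1, also known targets of HSF1, overlapped between all ages on their brightest probes. Dnajb1, the J-domain partner of inducible HSP70, was at 2.31, 2.41 and 2.44 in young, 2.56, 2.36 and 2.45 in middle-aged and 2.32, 2.13 and 2.36 in aged animals, a difference of 24 minus 3 months of -0.12 (adjusted p 0.581). Its second probe gave -0.42 with an unadjusted p of 0.00614 and had the aged animals, at 0.57 to 0.79, below all 6 others, so the size of the Dnajb1 difference depended on the probe. Hsph1, the exchange factor, was at 0.99, 1.09 and 0.92, at 1.18, 0.87 and 1.20, and at 0.77, 0.98 and 1.03, and these ranges overlapped (difference -0.07, adjusted p 0.798). In the wider pathway list described below, the regulator Hsf1 differed by -0.02 between 24 and 3 months.

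Immediate early genes, which rise within minutes of handling, differed between animals. The median of 10 such genes, relative to the young mean, was 0.82 in young replicate 1, -0.54 and -0.32 in the other young animals, -0.34 to -0.19 at 12 months and -0.73 to -0.45 at 24 months. Young replicate 1, the highest, held the lowest young Hspa1a value. Without it the Hspa1a difference of 24 minus 3 months was -0.74 (adjusted p 0.131). The part of tissue handling in the Hspa1a values was not tested.

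**Figure D2:**
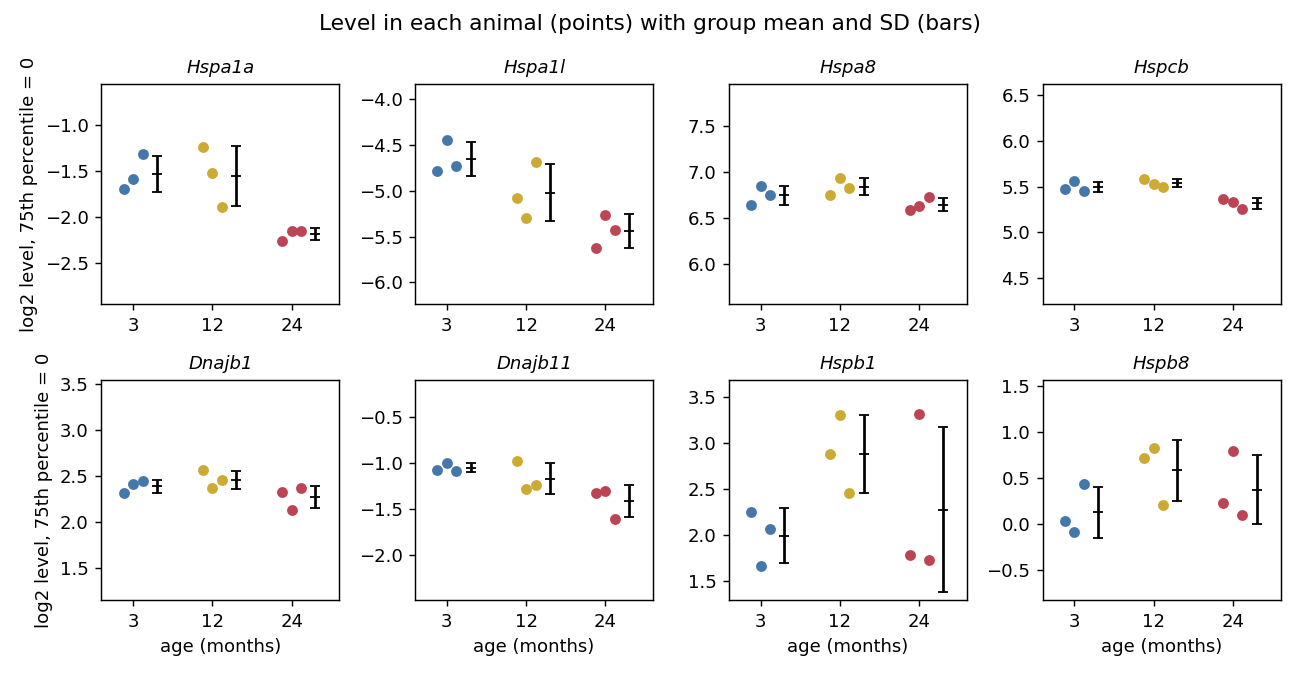
Log2 level relative to the array's 75th percentile for 8 members at 3, 12 and 24 months, with 1 point per animal and bars for the mean and SD of 3 animals; every panel spans the same 2.4 log2 units. The aged Hspa1a points lie below all others, the Hspcb points of 24 months lie just below the rest, and Hspb1 and Hspb8 spread widely at 24 months.

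The constitutive HSP70 and HSP90 genes had tight values and small differences. Hspa8, the constitutive cytosolic HSP70 that also strips clathrin from vesicles, was at 6.64, 6.85 and 6.75 in young, 6.75, 6.93 and 6.83 in middle-aged and 6.59, 6.62 and 6.72 in aged animals. The aged animals lay just below the middle-aged and overlapped the young, with differences of -0.19 (adjusted p 0.462) and -0.10 (adjusted p 0.606). Hspcb, the array's name for Hsp90ab1, the constitutive HSP90, was at 5.47, 5.56 and 5.45, at 5.58, 5.52 and 5.50, and at 5.36, 5.33 and 5.25. Its aged animals lay below all 6 others by a small margin. The differences were -0.18 (SE 0.07, adjusted p 0.268) against 3 months and -0.22 (adjusted p 0.352) against 12 months. Hspca, the array's name for the inducible Hsp90aa1, was at 7.09, 7.00 and 7.03, at 6.96, 7.11 and 7.18, and at 6.79, 7.04 and 7.13, with full overlap and a difference of -0.06 between 24 and 3 months. The 4 probes of Hspa8 gave -0.37 to -0.10 for 24 minus 3 months, the 4 of Hspca -0.15 to -0.06 and the 2 of Hspcb -0.18 and -0.05, all below 0.

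Over the whole HSP70 family, 11 of 12 genes were tested and 0 passed. By their brightest probe, 7 were lower and 4 higher at 24 than at 3 months (median -0.10, range -0.79 to 0.21). The other cytosolic HSP70 genes, Hspa2, Hspa4, Hspa4l and Hspa14, differed by 0.00, 0.21, -0.10 and 0.03. Hspa12a and Hspa12b, distant relatives of HSP70, differed by -0.12 and -0.15. The 4 probes of Hspa12a ran from -0.12 to 0.27, so its sign depended on the probe. Only the Hspa1a and Hspa1l differences had intervals clear of 0 in this family, before adjustment.

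By their brightest probe the 6 ER members were all slightly lower at 24 than at 3 months, and none passed. Their range was -0.36 to -0.01 with a median of -0.06. This does not hold for every ER chaperone. On the wider pathway list described below, Calr differed by 0.09, and Canx and Hyou1 by -0.12 and -0.035. Hspa5 (BiP), the ER HSP70 whose promoter holds the element shown above, was at 5.11, 4.99 and 5.14 in young, 5.14, 5.33 and 5.05 in middle-aged and 5.06, 5.04 and 4.90 in aged animals, a difference of -0.08 (adjusted p 0.713) with overlapping groups. Dnajb11, a BiP partner, was at -1.08, -0.99 and -1.08, at -0.97, -1.28 and -1.24, and at -1.32, -1.30 and -1.60. Its aged animals lay below all 6 others, by -0.36 against 3 months (SE 0.11, unadjusted p 0.0111, adjusted p 0.181). The stress-induced J-domain proteins Dnajb9 and Dnajc3 differed by -0.01 and -0.03, and Dnajc10 and Dnajc14 by -0.03 and -0.08. A second Dnajb9 probe gave 0.025. Over 22 fits the sign changed in 2 for Dnajb9, in 3 for Dnajc10 and in 1 for Dnajc3. Dnajc3 was lowest in middle-aged replicate 2, at 0.30 against 0.69 to 0.96 in the other 8 animals.

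Of 6 mitochondrial members 5 were higher and 1 lower at 24 than at 3 months by their brightest probe, with a range of -0.17 to 0.14 and 0 called. The chaperonin Hspd1 (HSP60) was at 5.09, 5.18 and 5.22, at 5.28, 5.17 and 5.15, and at 5.16, 5.22 and 5.15. Its difference was 0.01 with an interval of -0.15 to 0.18. Its 3 other probes gave -0.29, -0.23 and -0.17, so the sign for Hspd1 depended on the probe. The co-chaperonin Hspe1 differed by 0.09, and Hspa9a, the array's name for Hspa9 (mortalin, the import motor), by 0.13, with -0.09 on a second probe. Hspa9a stood highest in middle-aged replicate 2, at 5.21 against 4.40 to 4.77 elsewhere. Dnaja3 and Dnajc15 differed by 0.04 and 0.14, and Dnajc11, at -0.17, was the lower one.

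The 7 CCT subunits among the members differed by -0.16 to 0.19 between 24 and 3 months, with a median of -0.05 and 0 called. Cct3 was at 5.80, 5.88 and 5.77 in young, 5.89, 6.06 and 6.00 in middle-aged and 5.98, 6.00 and 6.03 in aged animals, so that the young animals lay below the rest. Its difference of 0.19 (unadjusted p 0.0268, adjusted p 0.261) was not matched by its other probe, at -0.08. Cct6a was at 0.17, 0.05 and 0.21, at -0.01, 0.18 and 0.22, and at 0.00, -0.04 and -0.03, a difference of -0.16 (adjusted p 0.389). Its aged animals lay below the young and overlapped the middle-aged. Cct2, Cct4, Cct5, Cct7 and Cct8 differed by 0.02, -0.13, -0.05, -0.07 and -0.02. Tcp1, a further subunit of the complex that is no member by name, differed by 0.03.

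**Figure D3:**
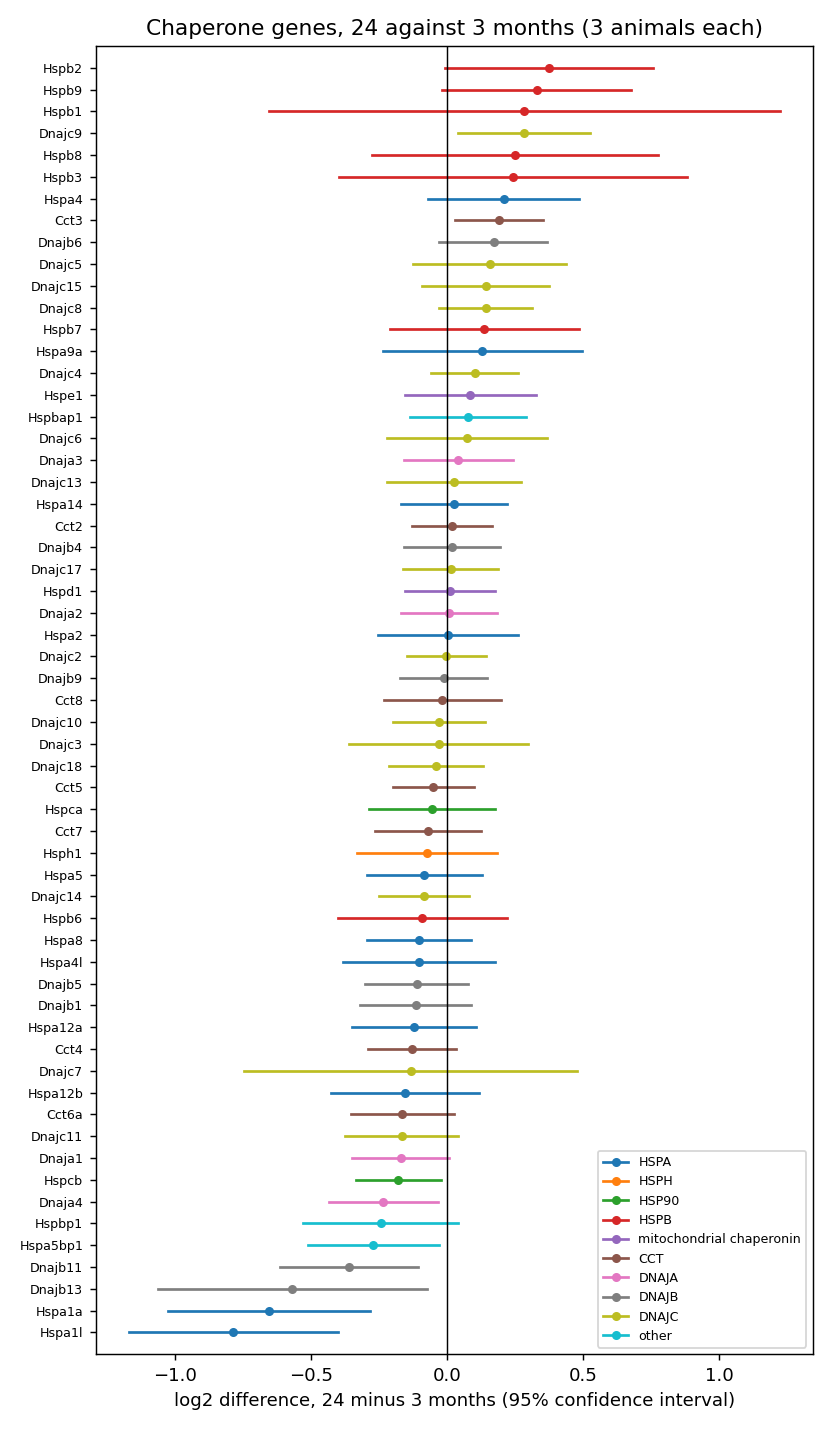
Log2 difference of 24 minus 3 months for each of the 59 tested chaperone genes with its 95% confidence interval from limma (3 animals per age), ordered by size and coloured by family. Most points lie within 0.25 of 0; Hspa1l and Hspa1a stand at the lower end at -0.79 and -0.65, and the widest interval is that of Hspb1.

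J-domain proteins had no common direction, and 0 were called. In the Dnaja family the range was -0.23 to 0.04, in Dnajb -0.57 to 0.17 and in Dnajc -0.17 to 0.28 (8 higher and 7 lower of 15 tested). Dnaja4 was at 1.97, 2.13 and 1.97, at 2.12, 1.90 and 2.08, and at 1.79, 1.86 and 1.71, with all aged animals below the others and a difference of -0.23 (adjusted p 0.263). Dnaja1, its cytosolic relative, differed by -0.17 with aged animals again below the rest (adjusted p 0.345). Dnajb13, a part of the radial spokes of cilia, was at -4.64, -3.88 and -4.70, at -4.68, -4.79 and -4.43, and at -5.06, -5.12 and -4.74. The difference was -0.57 (SE 0.22, adjusted p 0.269) and young replicate 2 was the highest animal. Without young replicate 2 the difference was -0.305 (adjusted p 0.506), and within slide 3 it was 0.075. The ependymal list, 5 of 6 markers tested, had a median difference of -0.02 with 0 called. Its markers did not move together, from -0.29 for Dnah9 to 0.67 for Spag6.

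At the synapse and endosome, Dnajc5 (cysteine string protein), which keeps SNAP25 folded, was at -1.42, -1.07 and -1.16, at -1.28, -1.07 and -1.29, and at -1.23, -1.06 and -0.89. The groups overlapped, with a difference of 0.16 (adjusted p 0.588). Dnajc6 (auxilin), which recruits Hspa8 to clathrin coats, differed by 0.07 and Dnajc13, an endosomal protein, by 0.03. The 4 probes of Dnajc6 ran from -0.26 to 0.07. Dnajc9, a histone chaperone, had the largest difference of 24 minus 3 months among the Dnajc genes, at 2.03, 2.09 and 2.41, at 2.16, 2.29 and 2.21, and at 2.41, 2.42 and 2.54. Its difference was 0.28 (unadjusted p 0.0276, adjusted p 0.264), and its second probe gave 0.12. Dnajc7 varied most among the Dnajc genes, with 1.31 in middle-aged replicate 2 and 1.52 in aged replicate 3 against 1.99 to 2.33 in the other 7 animals.

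Of the remaining members, the HSP70 exchange factor Hspbp1 differed by -0.24 (adjusted p 0.399) and Hspbap1, an HSPB1-binding protein, by 0.08. Hspa5bp1, the array's name for Tmem132a, a transmembrane protein and no chaperone, differed by -0.27 (adjusted p 0.277).

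The small heat shock proteins were the most variable family. Of 7 genes, 6 were higher and 1 lower at 24 than at 3 months (median 0.25, range -0.09 to 0.38), and 0 passed. Hspb1 (HSP27), which guards the cytoskeleton and is abundant in motor neurons, had the largest within-age SD of all members, 0.60. Its level was 2.25, 1.66 and 2.06 in young, 2.87, 3.31 and 2.45 in middle-aged and 1.78, 3.31 and 1.73 in aged animals. All middle-aged animals lay above all young ones, by 0.89 (unadjusted p 0.0613, adjusted p 0.808). The aged group was split, with replicate 2 at the level of the highest middle-aged animal and the others within the young range. For 24 minus 3 months the difference was 0.28 with an interval of -0.66 to 1.22, and without aged replicate 2 it was -0.24. The Hspb1 probe lies at chr12:21898758-21898928 of rn3, minus strand.

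Hspb8, the small heat shock protein that works with Bag3 in selective autophagy, split the animals in the same way. It was at 0.03, -0.09 and 0.44 in young, 0.71, 0.83 and 0.21 in middle-aged and 0.23, 0.80 and 0.10 in aged animals. The ages overlapped, with differences of 0.25 at 24 months and 0.46 at 12 months (adjusted p 0.653 and 0.859). The difference of 24 minus 3 months was 0.04 without aged replicate 2, 0.14 without young replicate 2, 0.40 without young replicate 3 and 0.39 without aged replicate 3. Within slide 3 the aged minus the young animal gave -0.41 for Hspb8, -0.36 for Hspb1 and -0.175 for Hspb2. For Hspb3, Hspb6, Hspb7 and Hspb9 it gave 1.05, 0.27, 0.47 and 0.02. The sign for Hspb8, Hspb1 and Hspb2 was thus opposite to that over all animals. Slide 3 compares only replicate 3 of each age, and the levels averaged per animal had the same order. Hspb8, for example, was at 0.44 in young replicate 3 and 0.10 in aged replicate 3. Hspb3, a muscle-enriched member, stood at -2.58 in aged replicate 3 against -3.70 to -3.15 in the other 8 animals. Hspb2, Hspb7 and Hspb9 are dim here, with 24 minus 3 month differences of 0.38, 0.14 and 0.33, and Hspb6 differed by -0.09.

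Hspb8 and Hspb1 had the highest correlations, among the members, with a list of cranial motor neuron genes across animals. The list held Chat, Slc18a3, Slc5a7, Isl1, Isl2, Mnx1, Prph and Calca, of which 6 of 8 were tested (all but Isl2 and Mnx1). It was written after member values had been seen, so the correlations are a description and no test is given. Summarised as a median of differences from the young mean, the list ran from -0.93 to 0.75 at 3 months, from 0.07 to 1.45 at 12 months and from -0.59 to 1.24 at 24 months, and 0 of its genes were called by age. Over 9 animals, Hspb8 correlated with this median at Pearson r = 0.93 and Spearman rho = 0.88, and Hspb1 at r = 0.89 and rho = 0.92. Leaving out young replicate 2 and middle-aged replicate 2, the 2 animals farthest from the median of the list, r was 0.88 for Hspb8 and 0.83 for Hspb1. The deviations from each age's mean gave r = 0.94 and 0.86. The deviations from each slide's mean, over 11 values of an animal on a slide, gave r = 0.93 for Hspb8 and 0.80 for Hspb1. Over 9 animals Hspa5 came next at r = 0.76, Hspb3 was the most negative at r = -0.69, and the median r over the 59 members was 0.00. All values of an animal share its arrays. The part of motor neuron content of the punch in the Hspb1 and Hspb8 values was not tested.

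**Figure D4:**
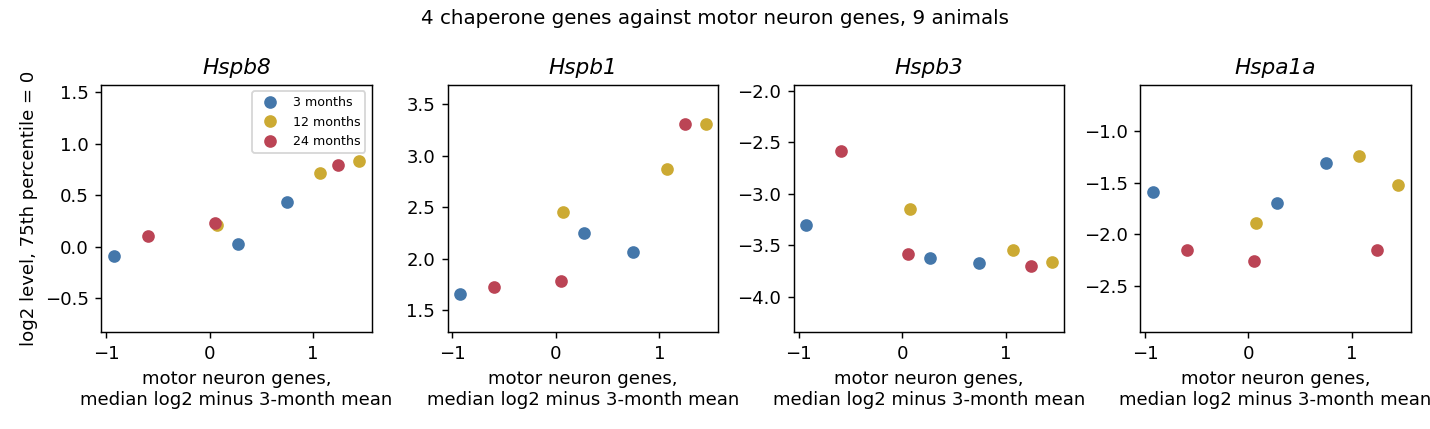
Log2 level of Hspb8, Hspb1, Hspb3 and Hspa1a (vertical axes, each spanning 2.4 log2 units) against the median log2 level of 6 motor neuron genes relative to the 3-month mean (horizontal axes), 1 point per animal, coloured by age. Hspb8 and Hspb1 are higher toward the right, at r = 0.93 and 0.89, with middle-aged replicates 1 and 2 and aged replicate 2 at the right end, while the aged Hspa1a points are low wherever they lie on it.

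Outside the members, 48 of 58 genes of the wider proteostasis list (HSF factors, co-chaperones, ER folding enzymes and unfolded protein response genes) were tested, and 1 of 48 passed, against 2.04% of all items. Serpinh1 (HSP47), the collagen chaperone of the ER, fell. It was at 1.28, 1.10 and 1.11 in young, 0.85, 1.06 and 0.96 in middle-aged and 0.69, 0.66 and 0.65 in aged animals, with a difference of -0.50 for 24 minus 3 months (adjusted p 0.0194) and no overlap between those ages. Serpinh1 passed in 14 of 22 fits, among them that without young replicate 2 (adjusted p 0.0481). Its adjusted p was 0.0576 without young replicate 1, 0.0555 without young replicate 3, 0.0626, 0.0731 and 0.0666 without aged replicates 1, 2 and 3, 0.0669 with the replicate block, 0.0541 with no filter on dim probes and 0.216 without the 3 animals named below. The difference stayed between -0.58 and -0.44 in all 22. Cryab, the alpha-crystallin small heat shock protein of glia, was at 6.32, 6.45 and 6.55, at 6.65, 6.67 and 6.66, and at 6.81, 6.71 and 6.89, so the 3 ages did not overlap. Its difference of 0.36 missed the threshold (adjusted p 0.0676) and passed in 2 of 22 fits. The list's median difference was -0.03, and 0 of its genes passed in the other comparisons.

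Of the cell type lists, 6 of 8 microglial markers rose between 3 and 24 months (median difference 1.06) and 3 of 8 oligodendrocyte markers fell (median -0.46). None of 8 neuronal, 8 astrocyte or 6 endothelial markers passed. Of 6 red blood cell genes 3 were tested and 0 passed, with a median difference of 0.89. Of the C1 markers, Th, Dbh and Ddc were tested, with 0 called, and Pnmt, which defines adrenergic cells, was not well above background. The part of these lists in the member values was not tested. The second principal component of all items, with 21.7% of the variance, set 3 animals off from the others. These were aged replicate 3, young replicate 2 and middle-aged replicate 3. Without these 3 animals 0 members passed between 24 and 3 months, and 4 had an unadjusted p under 0.05 in place of 9.

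Where several probes read 1 gene, they often disagreed about small differences. Of 23 genes with more than 1 kept probe, all probes had the same sign for 24 minus 3 months in 13 and for 24 minus 12 months in 16, and in 13 of these every probe was lower at 24 than at 12 months. The 5' most probe gave a lower 24 minus 3 month difference than the 3' most in 15 of 23 genes (65.2%), against 59.4% of 3318 genes on the array, with a median gap of -0.08 against -0.03. In Hspa8 the 4 probes in order from 5' to 3' gave -0.37, -0.24, -0.12 and -0.10. Hspa1a and Hspa12a were among the genes that ran the other way. The 5' most and 3' most probes gave -0.31 and -0.65 in Hspa1a and 0.27 and -0.12 in Hspa12a. Per the labels every RNA had an integrity number of at least 7, and the part of RNA integrity in these differences was not tested.

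Members with and without the pair of heat shock units had close median differences, which were not tested against each other. The 15 tested members with the pair of units had a median difference of -0.04 for 24 minus 3 months and the 34 matched members without it -0.02. Hspa1a was not among the 15. Promoters were matched for only 50 of the 61 members, so this alone does not show that its promoter lacks the pair. For 24 minus 12 months the medians were -0.12 and -0.05, and 11 of 15 and 24 of 34 were lower. The 4 with 3 units, Hspa8, Hspd1, Hspe1 and Hsph1, ranged from -0.10 to 0.09 between 24 and 3 months.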

How the data were processed

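RNA from 9 punches was read on 12 one-colour Agilent arrays (4 of them for each age). The deposited files hold intensity on a linear scale, which the authors made with Agilent Feature Extraction 9.5.1.1 per the file headers, with flags of 0 or 1 per spot as other values. The deposited series matrix holds a score with mean 0 and SD 1 per array, whose log base and centring are not stated; it correlates at 1 with log2 processed signal and served as an alternative, rescaled to log2 units.

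Processed signals were taken as log2, outlier spots dropped, spots of a probe averaged, each array's 75th percentile subtracted and both arrays of replicate 3 averaged per animal. Of 41012 non-control probes, 29792 were well above background on all arrays of at least 1 age and were kept, and a gene was read by its brightest kept probe, giving 25441 items. All 9 animals entered 1 fit with limma 3.58.1 in R 4.3.3 (lmFit and eBayes), with Benjamini-Hochberg adjustment over all items; the script was tested on simulated data. Other background corrections, scalings, filters, blocks and subsets of animals were tried as alternatives. Per array 73.5% to 77.1% of spots were well above background; the number of arrays limits the precision.

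Genes named were the members that passed, a set of heat-inducible, ER, mitochondrial, synaptic and CCT genes, the 2 largest differences of 24 minus 3 months in each family, and pathway genes that passed; others named were chosen after their values were seen. The members and lists were chosen with earlier results of these data known. Array gene names can be old: 15 further features of 13 genes match only by their current symbol (such as Hsp90b1) and are not members. Promoters came from RefSeq GRCr8 and probe positions from the arrays' rn3.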

Additional observations from a re-analysis of the deposited data

How the results depend on the processing

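No chaperone passed in any fit for 12 against 3 months, 24 against 12 months or the F test. For 24 against 3 months 0 passed, 1 with quantile normalization, 1 with the series matrix values, 1 with 12 arrays and animal as a random block without slide, and 0 to 2 when 1 animal was left out; these were Hspa1l and Hspa1a. At an unadjusted p under 0.05 the counts were 9 for 24 against 3 months, 2 for 12 against 3 months and 6 for 24 against 12 months. With the array median in place of the 75th percentile the median member difference was -0.059 for 24 minus 3 months and -0.111 for 24 minus 12 months, against -0.017 and -0.059, and the median of all items was -0.01 and -0.03. Animals left out in turn gave medians that stayed within their spread of 0.036. Replicate numbers did not pair the animals (correlations of same-numbered animals -0.41 to 0.37); with the replicate block 0 members passed, Serpinh1 was lost as given above, 2 in place of 3 oligodendrocyte markers and 1 in place of 0 red blood cell genes passed, and the other list counts were as printed. Over all items the calls for 24 against 3 months numbered 520, against 356 with the replicate block, 343 with only the groups compared, 321 with slide as a block, 310 with normexp, 288 with no filter, 271 to 510 with 1 animal left out and 55 without the 3 animals; those for 12 against 3 months ran from 2 to 75 around 51, and those for 24 against 12 months from 0 to 26 around 3. Of 726 values of single named genes under other settings, 38 changed sign or came to 0 without being called, 6 passed the threshold and 0 reversed. The 3 animals left out together were chosen after the data were seen. Precision is limited by 3 animals per age and, for Hspa1l, Hspb2, Hspb7, Hspb9 and Dnajb13, by signals near background.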
